A study of Austrofundulus limnaeus and Nothobranchius furzeri and Aphyosemion australe with 30 samples.

Results

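Late-only peaks are regions of open chromatin in South American killifish embryos whose accessibility was highest after 1 month of diapause, above every other sampled stage. Part of them were also raised at 6 days, as given below, so that late-only names the rule and not a peak closed until then. They were chosen by their values: both Dia 1m libraries had to exceed all 7 libraries of the other stages, and the Dia 1m mean had to lie at least 1 above each other stage mean on the log2(normalized reads + 1) scale, which is a factor of about 2. Of about 69000 consensus peaks, 345 met this rule (0.5%). Because Dia 1m chose the peaks, the levels at Dia 1m are given as a description, and no difference from Dia 1m was tested.

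The assay was ATAC-seq, which marks open chromatin by letting a transposase insert sequencing adapters there, on pools of wild-type embryos of Austrofundulus limnaeus dissected to the whole body. The series held 30 samples of 4 killifish species, 14 of them from this one. Pre-Dia embryos had reached the Kupffer's vesicle stage, Dev embryos were developing without diapause and had a beating heart, Dia 6d embryos had spent 6 days in diapause and Dia 1m embryos 1 month. The rule used 9 libraries of the larger table for this species: 2 of Dia 1m, 3 of Dia 6d, 2 of Dev and 2 of Pre-Dia embryos. A further 4 columns of per-sample values there were not used. The labels list 4 Dia 1m, 3 Dia 6d, 4 Dev and 3 Pre-Dia samples, and Dia 1m replicate 1.5 entered no comparison. The labels give no treatment in any group, so that the groups differed by stage and developmental route. Pre-Dia embryos came mainly from parents expected to yield embryos that develop directly, per the study's methods, which limits them as a starting point for diapause. Each library pooled whole bodies, so a change in the number of cells of a type and a change in accessibility per cell cannot be told apart. The labelled tissue could not be checked against markers, because the peaks carry no gene names.

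Diapause is a state of suspended development that lets embryos of annual killifish survive the drying of their ponds. Growth and cell division slow or stop in it, and the embryo draws on stored lipids. Open chromatin marks promoters and enhancers, the DNA elements from which genes are switched on, where nucleosomes have been displaced by bound factors.

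Values are reads per peak scaled by 1 factor per library by the authors, called normalized reads here, and they were not divided by peak width. The 8 libraries whose whole reads were recovered held 2.99 to 11.4 M (megareads) in consensus peaks. Pre-Dia replicate 1.5 was the shallowest of these. Dia 1m replicates 2 and 3 had the highest totals of normalized reads, at 8.79 and 8.76 M. Dia 6d replicate 1 followed with 8.51 M, and the other 6 libraries held 7.48 to 8.19 M. Dia 6d replicate 1 stood apart from the other Dia 6d libraries at the late-only peaks, as described below with values without it. Whether the library totals had a part in the choice of the peaks was not tested beyond the count after scaling to equal totals, which was 203.

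By stage means, late-only peaks were weaker than a typical peak outside Dia 1m and stronger at Dia 1m. The median over the 345 peaks of the stage mean was 39.8 normalized reads in Pre-Dia, 34.8 in Dev, 56.5 in Dia 6d and 126 in Dia 1m. Over all consensus peaks the medians were 61.4, 60.5, 61.1 and 61.4 in the same order of stages. By library, the median late-only peak held 43.9 and 36.6 normalized reads in Pre-Dia, 35.8 and 34.0 in Dev, 75.9, 48.7 and 47.8 in Dia 6d, and 142 and 117 in Dia 1m. Dia 6d replicate 1 was the exception outside Dia 1m, with 75.9 against 61.4 for all peaks of that library. The Dia 1m mean lay above the all-peak median in 91.0% of late-only peaks, as against 31.6% for Pre-Dia, 25.5% for Dev and 46.4% for Dia 6d. Most of the peaks carried reads at every stage. Only 21 held 3 or fewer reads in any Pre-Dia or Dev library, and for 19 of them this was in the shallow Pre-Dia replicate 1.5.

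**Figure D1:**
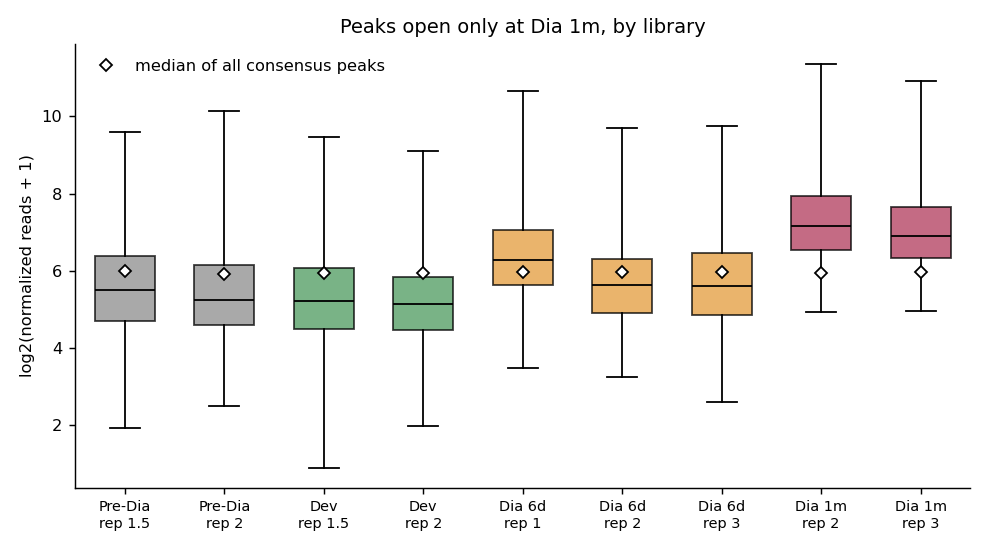
Log2(normalized reads + 1) of the 345 late-only peaks in each of 9 libraries, as boxes of the median and quartiles with whiskers to the lowest and highest peak. Open diamonds mark the median of all consensus peaks. The boxes of Dia 1m lie above the diamonds, those of Pre-Dia and Dev have medians below them, and Dia 6d replicate 1 lies above Dia 6d replicates 2 and 3.

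The rule was met by a small excess in most peaks. Both Dia 1m libraries exceeded the 7 others in 4214 peaks (6.11% of all), of which 3869 had a gap under 1, where the gap is the Dia 1m mean minus the highest of the other 3 stage means. A further 18 peaks had a gap of at least 1 without separation of the libraries. Among late-only peaks the median gap was 1.16, or 2.23-fold, and the largest was 2.23, or 4.68-fold. The gap reached 1.5 in 25 peaks and 2 in 4 peaks. The lower Dia 1m library exceeded the highest other library by a median of 0.53 on the log2 scale, and by at least 1 in 12 peaks. The mirrored rule, with both Dia 1m libraries below all others and a gap of at least 1, gave 159 peaks. This was at the deposited scaling, in which the Dia 1m libraries had the highest totals. At equal totals the late-only peaks numbered 203 and no mirrored count is given, so more opening than closing cannot be read from these counts. The 3 peaks just inside the threshold were Alim_peak_21276, Alim_peak_6435 and Alim_peak_34541, with gaps of 1.0002, 1.0007 and 1.0011. The 3 just outside among separated peaks were Alim_peak_61183, Alim_peak_35157 and Alim_peak_32996, with gaps of 0.9999, 0.9996 and 0.9981. Membership near the threshold therefore rested on differences far smaller than the spread between replicates. At Alim_peak_21276, for example, the Dia 1m libraries held 232 and 131 normalized reads.

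The largest gap was that of Alim_peak_29713 (NW_013952664.1:254530-254690, 161 bp, coordinates of Austrofundulus_limnaeus-1.0 as in the table). It held 24.7 and 5.88 normalized reads in Pre-Dia, 0.851 and 6.51 in Dev, 38.0, 17.8 and 13.8 in Dia 6d, and 126 and 83.5 in Dia 1m. Both Dia 1m libraries lay above Dia 6d replicate 1, the highest of the others. The Dev value of 0.851 was the lowest of its library, which was counted as 1 read and may be a floor. Alim_peak_26625 (NW_013952618.1:149691-150116) held 13.7 and 19.6 normalized reads in Pre-Dia, 8.51 and 16.6 in Dev, 27.9, 16.9 and 33.9 in Dia 6d, and 117 and 110 in Dia 1m. Its Dia 1m libraries were close to each other and far above every other library. At Alim_peak_24271 (NW_013952587.1:472505-472651), Pre-Dia held 21.9 and 21.6 normalized reads, Dev 17.0 and 15.2, Dia 6d 98.3, 33.7 and 26.4, and Dia 1m 204 and 170. Here Dia 6d replicate 1 was well above its own replicates, and the other 6 libraries outside Dia 1m lay together. Alim_peak_49092 (NW_013953173.1:25076-25355) held 24.7 and 4.57 normalized reads in Pre-Dia, 10.2 and 10.9 in Dev, 20.1, 15.9 and 18.9 in Dia 6d, and 83.6 and 72.6 in Dia 1m. The Dia 6d libraries agreed well at this peak and overlapped the Pre-Dia libraries.

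The next 4 gaps were between 1.75 and 1.87. Alim_peak_8150 (NW_013952436.1:2082194-2082344) held 134 and 58.7 normalized reads in Dia 1m, and its highest other library held 30.1. Alim_peak_6990 (NW_013952430.1:310161-310283) held 86.9 and 84.5 in Dia 1m against at most 32.4 elsewhere, and its Dia 6d libraries (32.4, 28.1 and 15.1) all exceeded the Dev libraries (5.11 and 2.90) and the Pre-Dia libraries (11.0 and 10.5). Alim_peak_59851 (NW_013954270.1:30701-30845) held 58.6 and 49.7 in Dia 1m against at most 29.0. At Alim_peak_19455 (NW_013952532.1:645842-646183), Dia 1m held 396 and 172 normalized reads and every other library 45.3 to 85.0. The order of stages outside Dia 1m thus differed from peak to peak, and at 2 of these 8 peaks, Alim_peak_8150 and Alim_peak_19455, the Dia 1m libraries differed more than 2-fold.

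**Figure D2:**
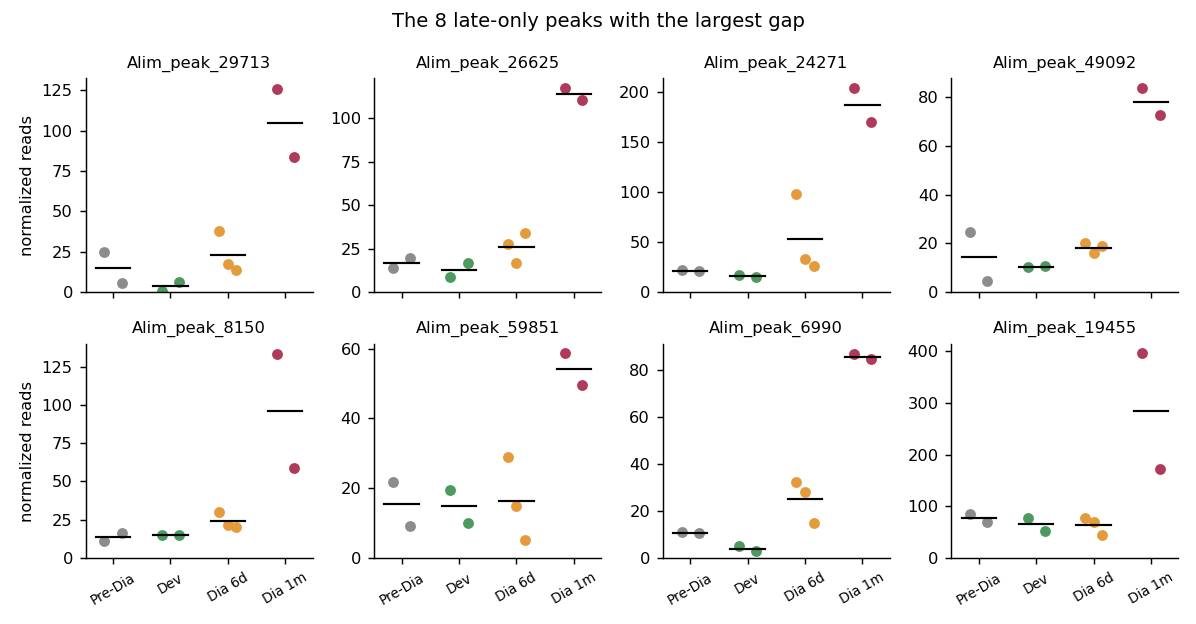
Normalized reads at the 8 late-only peaks with the largest gap, 1 panel a peak, by stage. Points are libraries and black lines are stage means; each vertical axis starts at 0 and has its own scale. Both Dia 1m points lie above all other points in each panel, as the rule required, and the Dia 6d points spread most at Alim_peak_24271, where replicate 1 held 98.3.

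The 4 strongest late-only peaks had gaps of 1.01 to 1.48. Alim_peak_10021 (NW_013952450.1:2342984-2343257) had the highest Dia 1m level, with 710 and 848 normalized reads in Pre-Dia, 356 and 317 in Dev, 1019, 558 and 732 in Dia 6d, and 2621 and 1797 in Dia 1m. Its gap was 1.48, above the median of the late-only peaks, and Dev was its lowest stage. Alim_peak_60703 (NW_013954472.1:6237-7068) and Alim_peak_18566 (NW_013952523.1:1253896-1254650) held 2280 and 1948, and 2144 and 1760 normalized reads in Dia 1m, with gaps of 1.01 and 1.13. Alim_peak_51886 (NW_013953336.1:33587-34273) held 1277 and 952 in Dia 1m, with a gap of 1.01. In these 4 peaks Dia 6d replicate 1 was the highest library outside Dia 1m.

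The order among Pre-Dia, Dev and Dia 6d was not used by the rule. Their values were, since each had to lie below Dia 1m, and the shares of all peaks carry no such limit. Dia 6d was the highest of these 3 stages in 254 late-only peaks (73.6%), as against 35.9% of all peaks. Pre-Dia was highest in 68 (19.7%, against 33.6%) and Dev in 23 (6.67%, against 30.5%). Dev was the lowest of the 3 in 228 (66.1%, against 29.8%). The most frequent order, Dev below Pre-Dia below Dia 6d, held for 172 late-only peaks (49.9%), as against 16.1% of all peaks. On the log2 scale the Dia 6d mean exceeded the mean of Pre-Dia and Dev by a median of 0.48 in late-only peaks (quartiles 0.19 and 0.85) and by 0.0053 in all peaks. The difference was above 0 in 317 late-only peaks (91.9%), as against 50.4% of all peaks. At Dia 6d a median of 28.8% of the log2 difference between Dia 1m and the mean of Pre-Dia and Dev was present. It was at least 50% in 37 peaks and under 10% in 70 peaks. The rule kept Dia 6d at least 1 below Dia 1m and so capped this share. It describes the chosen peaks and does not measure how much opening had occurred by 6 days. All 3 Dia 6d libraries exceeded all 4 Pre-Dia and Dev libraries in 79 late-only peaks (22.9%), as against 9.19% of all peaks. They lay below all 4 in 0 late-only peaks, as against 8.33% of all peaks.

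Much of the 6-day difference came from Dia 6d replicate 1. It was the highest Dia 6d library in 300 late-only peaks (87.0%), as against 37.9% of all peaks, and the highest of all 7 libraries outside Dia 1m in 262. It exceeded the mean of Dia 6d replicates 2 and 3 by a median of 0.71 on the log2 scale in late-only peaks and by 0.03 in all peaks. Without it, the median difference of Dia 6d from the mean of Pre-Dia and Dev was 0.26 in late-only peaks and 0.00036 in all peaks, and it was above 0 in 260 late-only peaks (75.4%), as against 50% of all. The median share of the Dia 1m difference present at Dia 6d, capped by the rule in the same way, was then 16.1%. Dia 6d replicates 2 and 3 both exceeded all 4 Pre-Dia and Dev libraries in 80 late-only peaks (23.2%), as against 13.0% of all peaks. What sets this library apart was not tested. Leaving it out of the rule gave 679 late-only peaks, of which 340 were among the 345.

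**Figure D3:**
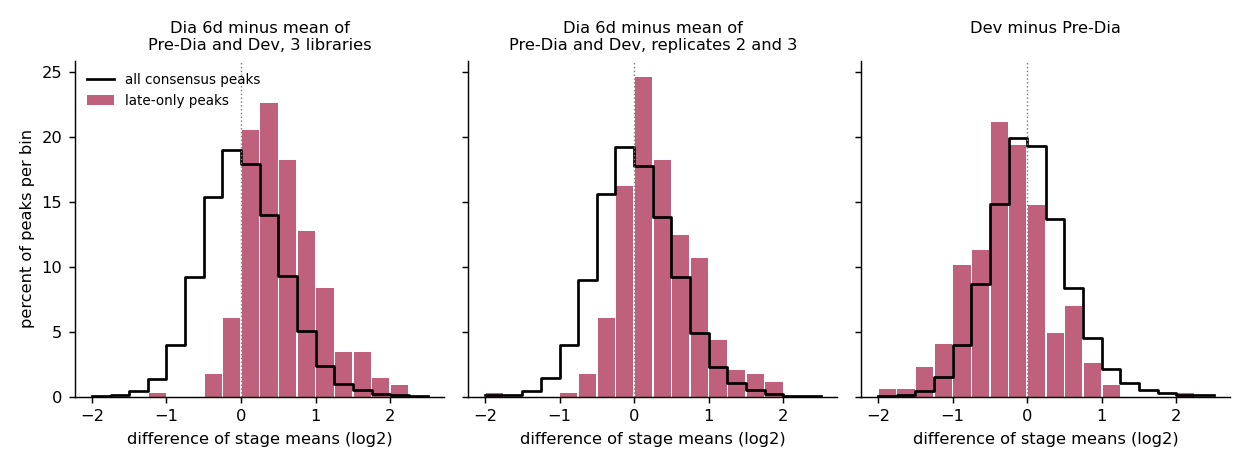
Percent of peaks per bin of 0.25 of the log2 difference between stage means, for the 345 late-only peaks (bars) and all consensus peaks (line). Values beyond the ends were put in the end bins. The late-only peaks sit to the right of all peaks for Dia 6d (median 0.48), less so without replicate 1 (median 0.26), and to the left for Dev minus Pre-Dia (median -0.25).

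The limma fit asked which late-only peaks differed at 6 days from the stages outside diapause. Against the mean of Pre-Dia and Dev, 58 late-only peaks were higher at Dia 6d at an adjusted p under 0.05 (16.8%), as against 3.77% of all peaks. In the other direction 0 were lower, as against 1.83% of all peaks. At an unadjusted p under 0.05 1 was lower, and edgeR and DESeq2 called 0 as well. Against Dev, 49 were higher at Dia 6d (14.2%, against 1.63% of all peaks) and 0 lower (against 0.719%). At an unadjusted p under 0.05 0 were lower, and 0 by edgeR or DESeq2. Against Pre-Dia, 28 were higher (8.12%, against 3.45%) and 1 lower (0.290%, against 1.39%). Dev lies on another route, so a difference from Dev or from that mean is not a change over time. Only Pre-Dia is an earlier stage, within the limit on its parents given above. These 3 comparisons share the Dia 6d libraries. In late-only peaks, unlike all peaks, the rule had also held the values of Pre-Dia, Dev and Dia 6d below Dia 1m. The spread in this fit came in part from the Dia 1m libraries, whose values chose the peaks. Fitted without them, 47, 39 and 22 late-only peaks were higher at Dia 6d in the same order, and 1 was lower against Pre-Dia. Over all peaks 2501, 1052 and 2383 were higher. Single libraries changed the counts, in late-only peaks and over all peaks. Without Dia 6d replicate 1, 10 late-only peaks were higher and 1 lower against the mean of Pre-Dia and Dev. In that fit 9 were higher against Dev, and 4 were higher and 1 lower against Pre-Dia. Over all peaks 677, 267 and 812 were higher in the same order, in place of 2603, 1121 and 2377. Dropping a Dev or a Pre-Dia library leaves 1 in that stage, so only median differences of Dia 6d from Dev are given here. In late-only peaks the median was 0.70 when Dev replicate 1.5 was dropped and 0.55 when replicate 2 was, in place of 0.60. The all-peak medians were -0.011 and -0.0035, in place of -0.0051. Dropping either Pre-Dia library left the medians at 0.60 and -0.0051. After scaling to equal totals, the all-peak calls against the mean of Pre-Dia and Dev were 1702 higher and 1587 lower, in place of 2603 and 1259, and those against Dev were 678 and 626, in place of 1121 and 496.

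The late-only peaks with the lowest adjusted p at 6 days combined a clear Dia 6d level with a further excess at Dia 1m. Alim_peak_54997 (NW_013953588.1:101856-102250) held 272, 125 and 113 normalized reads in Dia 6d, against 17.9 and 23.9 in Dev and 87.7 and 66.7 in Pre-Dia. All Dia 6d libraries were above all Pre-Dia and Dev libraries, and Dia 1m held 484 and 452. The log2 difference of Dia 6d from the mean of Pre-Dia and Dev was 1.95 (SE 0.29, limma adjusted p = 1.88e-05). That mean includes a low Dev, whose log2 difference from Pre-Dia was -1.84, so the distance of Dia 6d from Pre-Dia alone was smaller. Alim_peak_56768 (NW_013953803.1:51382-51922) held 131, 64.6 and 86.8 normalized reads in Dia 6d, against 16.2 and 28.2 in Dev and 30.2 and 21.6 in Pre-Dia (log2 difference 1.90, SE 0.31, limma adjusted p = 8.05e-05). Its Dia 6d libraries were above the others without overlap, and Dia 1m held 275 and 231. Alim_peak_59689 (NW_013954241.1:18677-19588) held 473, 233 and 180 normalized reads in Dia 6d, against 74.1 and 80.3 in Dev and 82.2 and 128 in Pre-Dia (log2 difference 1.59, SE 0.27, limma adjusted p = 0.000217). The groups did not overlap, with Dia 6d replicate 1 far above the other Dia 6d libraries, and Dia 1m held 862 and 868. Alim_peak_31625 (NW_013952696.1:330205-330495) held 73.7, 57.1 and 61.6 normalized reads in Dia 6d, against 14.5 and 13.0 in Dev and 13.7 and 26.1 in Pre-Dia (log2 difference 1.92, SE 0.33, limma adjusted p = 0.000228). This peak had the most even Dia 6d libraries of the 4, and Dia 1m held 127 and 152. Each of these 4 stayed past the threshold in 17 of 18 alternatives. All 4 were lost in the same one, with the replicate number as a block (limma adjusted p = 0.252, 0.391, 0.827 and 0.484, in the order above). In that fit Dia 6d replicate 1 has a block of its own, so it does not count towards the difference, and the spread rests on fewer free values. Alim_peak_41644 (NW_013952905.1:37100-37788) was the 1 late-only peak that fell at Dia 6d against Pre-Dia, with 56.9, 13.1 and 8.80 normalized reads in Dia 6d, against 104 and 49.7 in Pre-Dia (log2 difference -1.87, SE 0.48, limma adjusted p = 0.0155). The groups overlapped, and the call was lost in 5 of 18 alternatives, among them the fits without Pre-Dia replicate 1.5, Dia 6d replicate 2 or Dia 6d replicate 3. Its Dia 1m libraries held 350 and 124, so that it was low at 6 days and high at 1 month.

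Dev and Pre-Dia were compared to ask whether the late-only peaks also change along the route without diapause. Dev was below Pre-Dia by a median of 0.25 on the log2 scale in late-only peaks (median difference -0.25, and 0.0036 in all peaks). The difference was above 0 in 105 late-only peaks (30.4%), as against 50.3% of all. By limma, 2 late-only peaks fell in Dev (0.580%, against 0.104% of all peaks) and 0 rose (against 0.165%), with 4 higher at an unadjusted p under 0.05 and 0 called higher by edgeR or DESeq2. After quantile normalization the all-peak calls were 75 higher and 78 lower in Dev, in place of 114 and 72. The 2 peaks that fell were Alim_peak_54997, described above (log2 difference -1.84, SE 0.38, limma adjusted p = 0.0169), and Alim_peak_60169 (NW_013954341.1:31503-31891), which held 40.9 and 46.3 normalized reads in Dev, against 145 and 136 in Pre-Dia (log2 difference -1.67, SE 0.35, limma adjusted p = 0.0191). The groups did not overlap at either peak. At Alim_peak_60169 Dia 6d held 140, 108 and 96.8, near the Pre-Dia level, and Dia 1m held 407 and 406. These calls depended on single libraries. Without Pre-Dia replicate 2 the median difference was -0.35 in late-only peaks and -0.035 in all peaks. The median was -0.33 without Dev replicate 1.5 and -0.14 without Dev replicate 2, and the 2 calls were lost in each of these 2 fits.

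The Dia 1m libraries did not contribute equally. Replicate 2 exceeded replicate 3 in 254 late-only peaks (73.6%), as against 51.1% of all peaks, by a median of 0.24 on the log2 scale, and the libraries were over 1 apart in 14. To see how one library reads in peaks that it did not choose, the rule was applied with 1 Dia 1m library at a time. Chosen with Dia 1m replicate 2 alone, 1107 peaks qualified, and replicate 3 exceeded all 7 libraries of the other stages in 698 of them (63.1%), as against 14.1% of all peaks. Replicate 3 exceeded the mean of the other stages by a median of 0.82 in these peaks, whereas replicate 2, which chose them, did so by 1.49. Chosen with replicate 3 alone, 373 peaks qualified, and replicate 2 exceeded the 7 others in 290 (77.7%, against 16.8% of all peaks), by a median of 1.42 against 1.60 for the library that chose them. The left-out library was at least 1 above each other stage mean in 180 peaks of either choice, which were 16.3% of the 1107 and 48.3% of the 373. Both choices share the 7 other libraries, so a peak that was low in those by chance is low in both readings.

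A smaller table of this species held 1 library each of Pre-Dia, Dev and Dia 1m over 17343 peaks that the authors called and normalized separately. Its Dia 1m library, replicate 1, took no part in the rule. By position, 83 late-only peaks (24.1%) overlapped a peak of this table by at least 1 bp, as did 24.7% of all peaks. Dia 1m was at least 1 above both other libraries on the log2 scale in 70 of the 83 (84.3%), as against 8.21% of 17066 matched peaks, and was above both in 82. The share was close to this, 68 of 86 (79.1%), in matched peaks open throughout diapause, that is, chosen by the same kind of rule in Dia 6d and Dia 1m together. The smaller table has no Dia 6d library and so cannot tell late-only peaks from those. The median difference was 1.74 from Pre-Dia and 2.04 from Dev in the late-only peaks, and -0.0094 and -0.03 over all matched peaks. A peak that is low in Pre-Dia and Dev can enter that table mainly through Dia 1m, and there is 1 library a stage, so the count is a description with no test. The Dev and Pre-Dia libraries may not be separate from those of the rule. Across the 17066 matched peaks, the Dev library had a Pearson correlation of 0.981 with Dev replicate 2. The 2 Dev libraries of the rule had 0.912 with each other. Pre-Dia replicate 1 had 0.924 with Pre-Dia replicate 1.5, where the 2 Pre-Dia libraries of the rule had 0.824. Libraries of different stages in the rule reached up to 0.96, above that 0.924. Whether any library is shared was not tested. Dia 1m replicate 1 had 0.886 with replicate 2 and 0.818 with replicate 3, where the 2 Dia 1m libraries of the rule had 0.922. With Dia 6d replicate 1 it had 0.814, close to its value with Dia 1m replicate 3. Against Pre-Dia alone, 74 of the 83 were at least 1 higher in Dia 1m (89.2%), as against 17.7% of matched peaks.

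Among the matched peaks, Alim_peak_21132 (NW_013952552.1:675758-676219) had the largest difference in the smaller table, with 373 normalized reads in Dia 1m, against 53.8 in Dev and 34.7 in Pre-Dia. Alim_peak_52375 (NW_013953368.1:76592-77107) held 252 in Dia 1m, against 36.3 and 34.7 in Dev and Pre-Dia. Alim_peak_32310 (NW_013952707.1:595505-596014) held 327 in Dia 1m, against 54.7 and 48.0 in Dev and Pre-Dia. These peaks were high in the Dia 1m libraries of both tables. Alim_peak_41866 (NW_013952909.1:308899-309550) held 463 in Dia 1m, against 81.5 and 72.1 in Dev and Pre-Dia. The smallest differences were at Alim_peak_18460 (NW_013952523.1:167660-168173), with 40.3 in Dia 1m, against 26.9 in Dev and 45.4 in Pre-Dia, and at Alim_peak_22575 (NW_013952570.1:593577-593956), with 101 in Dia 1m, against 49.3 in Dev and 82.7 in Pre-Dia. Alim_peak_18460 was the 1 matched late-only peak not above both other libraries there. A single read was 5.04 normalized reads in that Dia 1m library and 2.67 in Pre-Dia, so this exception rested on few reads. So did the Pre-Dia values of 34.7 at Alim_peak_21132 and Alim_peak_52375. In the peaks of the smaller table, Dia 1m held 0.744 M reads, Pre-Dia 1.00 M and Dev 5.74 M.

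**Figure D4:**
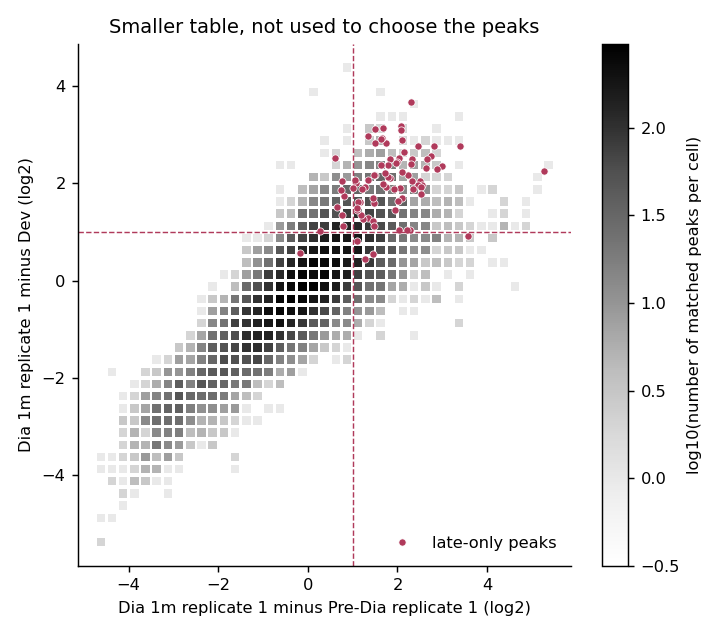
Log2 difference of Dia 1m replicate 1 from Pre-Dia replicate 1 (horizontal) and from the Dev library (vertical) in the smaller table. Red points are the 83 matched late-only peaks, grey squares count the 17066 matched peaks, and dashed lines mark a difference of 1. The upper right corner beyond both lines holds 70 of the 83 late-only peaks and 8.21% of the matched peaks.

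Late-only peaks were narrower than consensus peaks in general, with median widths of 300 and 379 bp. The narrowest 25% of all peaks, up to 264 bp, held 140 of them (40.6%) and the widest 25%, from 561 bp, held 48 (13.9%). Narrowness was shared by the peaks lowest at Dia 1m, of which 69 of 159 were in the narrowest class and 18 in the widest. By the same kind of rule, 51 peaks were open only at Dia 6d (median width 276 bp), 277 only in Dev (384 bp), 144 only in Pre-Dia (307.5 bp) and 602 throughout diapause, in Dia 6d and Dia 1m (315 bp). The last rule does not exclude a further rise between 6 days and 1 month, and 33 peaks met both it and the late-only rule.

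The 345 peaks lay on 270 of the 6816 scaffolds that carry peaks, and 220 of these scaffolds held 1 late-only peak each. Of the late-only peaks 7 pairs lay within 20 kb, the closest being Alim_peak_5976 and Alim_peak_5977 (NW_013952425.1:1272804-1273149 and 1274316-1274650), which were 1167 bp apart and are named for that. The nearest peak outside the list within 10 kb, present for 274 late-only peaks, exceeded the mean of the other stages at Dia 1m by a median of 0.17 on the log2 scale, and 62.4% of these neighbours were above 0. For the neighbours of all peaks the values were 0.0059 and 50.5%. The late-only peaks themselves had a median of 1.56. They were chosen for this difference and the neighbours had not met the rule, so these medians cannot be weighed against each other.

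Scaffold NW_013952552.1 held the most late-only peaks, with 6 of 119 peaks in a stretch of 286 kb. The 6 are named here after their values were seen. At 4 of them every Dia 6d library lay above every Dev library. Alim_peak_21117 (NW_013952552.1:494699-495077) held 41.1 and 19.6 normalized reads in Pre-Dia, 9.37 and 11.6 in Dev, 49.1, 41.2 and 31.4 in Dia 6d, and 102 and 77.6 in Dia 1m. Alim_peak_21145 (NW_013952552.1:769558-769790) held 24.7 and 22.9 normalized reads in Pre-Dia, 26.4 and 13.0 in Dev, 89.3, 48.7 and 51.5 in Dia 6d, and 132 and 152 in Dia 1m. Alim_peak_21132, the peak with the largest difference in the smaller table, held 151 and 183 in Pre-Dia, 77.5 and 96.3 in Dev, 326, 202 and 234 in Dia 6d, and 653 and 490 in Dia 1m. At these 3 peaks every Dia 6d library lay between the Dev and the Dia 1m libraries. At Alim_peak_21147 the Dia 6d and Dev libraries nearly met. Alim_peak_21147 (NW_013952552.1:780445-781077) held 148 and 190 in Pre-Dia, 180 and 87.6 in Dev, 355, 182 and 243 in Dia 6d, and 590 and 557 in Dia 1m. At the other 2 the Dia 6d and Dev libraries overlapped. Alim_peak_21121 (NW_013952552.1:545018-545331) held 54.8 and 55.5 in Pre-Dia, 65.6 and 45.6 in Dev, 78.2, 58.1 and 60.3 in Dia 6d, and 220 and 116 in Dia 1m. Alim_peak_21138 (NW_013952552.1:725954-726132) held 32.9 and 35.3 in Pre-Dia, 33.2 and 18.8 in Dev, 39.1, 27.2 and 41.5 in Dia 6d, and 124 and 68.6 in Dia 1m. Of the 25 other peaks in this stretch, 20 were higher at Dia 1m than the mean of the other stages, by a median of 0.68 over the 25, and both Dia 1m libraries exceeded the 7 others in 5. This scaffold was picked for its count of late-only peaks, so its neighbours are described and not tested. No peak could be assigned to a gene, because the annotation used here places no gene on a scaffold.

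**Figure D5:**
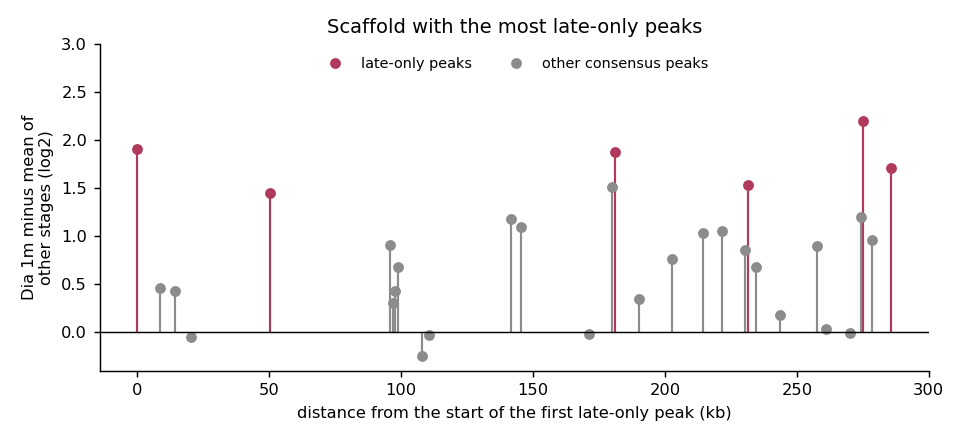
Dia 1m mean minus the mean of the other 3 stage means (log2) for the 31 consensus peaks between the first and the last late-only peak of the scaffold with the most late-only peaks, against the distance in kb from the first. The 6 late-only peaks (red) lie between 1.45 and about 2.2, and 20 of the 25 other peaks (grey) lie above 0.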

How the data were processed

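As the study's methods describe, reads were trimmed (Trim Galore 0.4.1), aligned (Bowtie2 2.2.5), freed of duplicates (Picard 2.22.1, SAMtools 1.5) and shifted for the transposase (deepTools 3.2.1) by the authors, who then called and merged peaks (MACS2 2.1.1.20160309). Versions are from the submitters' processing notes. The deposited values are a signal, each peak's reads scaled by 1 factor for its library, although the tables are named RPKM. Within 0.01 reads, whole multiples of 1 read made up 100% of the values used in the larger table and at least 99.99% in each library of the smaller one. The reads of Dia 1m replicate 3, whose factor is near 1, were not recovered, although its values were whole multiples too. Count models therefore used 8 libraries. In the larger table, 4 columns of per-sample values were not used.

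Groups came from the labels. The peaks, lists and tests were chosen with earlier results of these data known. One limma fit (3.58.1, R 4.3.3; trended prior, 9 libraries, 4 groups) on log2(value + 1) gave two-sided tests, adjusted by Benjamini-Hochberg over all peaks at 0.05. RPKM had been assumed when this test was planned. The test was kept for the signal, and how well it suits libraries of unequal depth was not tested. The code was tested on simulated data. Fold changes on this scale understate changes of low peaks. Libraries of a group are labelled as replicates, but nothing says whether they came from separate clutches, so p-values measure only the spread between these libraries, which may be technical. Peaks named were the 8 largest gaps, the 4 highest at Dia 1m, 3 on each side of the threshold, the 4 lowest adjusted p at Dia 6d, every member called where 5 or fewer were, and 4 and 2 matched peaks with the largest and smallest differences. The closest pair and the 6 peaks of the scaffold with the most members were added after their values were seen. Alternatives were pseudocounts of 0.5 and 5, a minimum mean of 10, quantile normalization, equal totals, a fit without Dia 1m, a replicate block, edgeR 4.0.16 and DESeq2 1.42.0 on recovered reads, a reciprocal overlap of 50%, and leaving out each library. The planned gene lists, motifs and distances to genes were not analysed here. The smallest start in the table is 0 while widths count both ends, so the base from which starts count is uncertain by 1.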

Additional observations from a re-analysis of the deposited data

How the results depend on the processing

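The number of late-only peaks was 203 with equal totals over consensus peaks, which moved the median of all peaks (Dia 1m minus the mean of the other stages) by -0.16, to -0.13, and that of late-only peaks to 1.40. It was 345 by the deposited scaling. Leaving out 1 library gave 260 to 1107, namely 679 without Dia 6d replicate 1 and, at the top, 1107 when Dia 1m replicate 3 was dropped. Pseudocounts, the minimum mean and quantile normalization gave 274 to 353. Leaving out 1 library gave 5 to 35 late-only peaks called between Dia 6d and Pre-Dia, 8 to 89 between Dia 6d and Dev (9 without Dia 6d replicate 1), 0 to 15 between Dev and Pre-Dia and 11 to 79 between Dia 6d and the mean of Pre-Dia and Dev (37 without Dev replicate 1.5), and DESeq2 called 15 between Dia 6d and Pre-Dia. Between Dev and Pre-Dia, 4 were called with a pseudocount of 5, after quantile normalization or by edgeR, in place of 2. Calls over all peaks changed in the same fits, so these ranges alone do not show how late-only peaks differ from other peaks. Where a library was left out of a stage with 2, the other was assumed to vary like the rest. The scaling to equal totals in the limma fit and the separation of Dia 6d replicates 2 and 3 were added after seeing the data.

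The labels do not say whether the replicate number pairs libraries across stages. Same-numbered libraries deviated from their stage means with correlations of -0.17 to 0.18, and 1 of 8 such pairs exceeded 0.1. In a stage with 2 libraries the deviations mirror each other, so the 8 pairs are not separate readings. The correlations therefore cannot show whether clutches or batches were shared. Among the libraries of the fit only Dia 6d replicate 1 has the number 1, so a block by number takes it out of every Dia 6d comparison. The block also leaves fewer free values to estimate the spread. Calls lost in this fit therefore cannot show whether pairing matters. With the replicate number as a block, 0 late-only peaks were called between Dia 6d and Pre-Dia and 1 between Dia 6d and Dev. Between Dia 6d and the mean of Pre-Dia and Dev 0 were called, and 3 between Dev and Pre-Dia. Over all peaks the block gave 92 higher and 21 lower, 48 and 17, 73 and 24, and 188 and 53, in the same order. Without the block these were 2377 and 957, 1121 and 496, 2603 and 1259, and 114 and 72. The depth of Pre-Dia replicate 1.5 limits low values in that stage.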
